A study of Rattus norvegicus with 14 samples.

Results

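The genes described here build the axoneme, the microtubule core of motile cilia. They were taken by name: every gene of the rat array whose symbol begins with Dnah, Dnai, Dnaaf, Cfap, Rsph, Tekt or Drc followed by a number, together with Spag6, Spag16, Spag17 and Hydin. Of the 97 rat symbols of this kind in RefSeq, 54 were measured by a named probe, among 15154 named genes in all, and each was read from its brightest probe. The other 43, with Dnah5, Dnah7, Dnah9, Dnah11, Rsph4a, Spag17, Hydin and Cfap53 among them, were not analysed here. Because the choice is by name, it also holds Cfap36, Cfap97, Cfap410 and Cfap418, whose products are not established structural parts of the axoneme.

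RNA came from the choroid plexus (CP) of the lateral ventricles of Wistar rats, the vascular and epithelial tissue that secretes cerebrospinal fluid. Rats of both sexes were operated on at 2 months of age and sampled 2 weeks later. The groups were ovariectomized females (OVX, 3 arrays), orchidectomized males (OOX, 4 arrays) and sham-operated animals of each sex (3 female and 4 male arrays). Each array was hybridised with Cy3-labelled RNA of 1 pool of 3 animals, so that animals within a pool cannot be told apart, and the p-values measure the spread between pools. All sham females and OVX female 1 were scanned on 1 day, and OVX females 2 and 3 and all males on another. The only slide with both female groups held sham female 3 and OVX female 1. Scan day and slide were therefore largely confounded with surgery in females. This also affects any comparison of the male with the female differences. The question was which transcripts differ when the gonads, the main source of sex hormones, have been removed.

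A motile axoneme is a ring of doublet microtubules around a central pair. Outer and inner dynein arms on the doublets produce the sliding force, radial spokes and the central apparatus coordinate it, and the nexin-dynein regulatory complex (N-DRC) links neighbouring doublets. Tektins and other proteins lie inside the doublets, while the Dnaaf proteins assemble dynein arms in the cytoplasm before they enter the cilium. CP epithelial cells carry tufts of several cilia, the ependymal cells that line the adjoining ventricle carry motile cilia that move cerebrospinal fluid, and sperm flagella are built from many of the same proteins. In a tissue extract, fewer cells of a type and less RNA per cell cannot be told apart.

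Transcription of axoneme genes is known to be driven by FOXJ1 and RFX factors, and RFX factors bind a sequence called the X-box. RefSeq promoter windows (build GRCr8, 300 bases around the gene start) were held for 44 of the 54 genes. The RFX half-site GTTGCC, searched on both strands, lay in 15 of the 44 windows (34.1%) against 12.2% of all 27457 windows. The full X-box, searched as GTTNCC and GGNAAC with 2 bases between them, lay in 4 windows (9.09%) against 0.459% of all windows; these matches overlap the half-site. The FOXJ1 core TGTTTAC lay in 2 windows (4.55%), those of Cfap20 and Tekt3, against 3.76% of all windows. These are matches of letters, given as a description. The 4 windows with a full X-box belong to Cfap20dc, Cfap298 and the dynein assembly factors Dnaaf2 and Dnaaf6. They are shown over 60 bases with the X-box in capitals, at chr15:18661361-18661420 (plus strand), chr11:43677573-43677632 (minus strand), chr6:93406375-93406434 (minus strand) and chrX:108512930-108512989 (plus strand).
Cfap20dc: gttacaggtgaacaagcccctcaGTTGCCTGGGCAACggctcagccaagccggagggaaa
Cfap298: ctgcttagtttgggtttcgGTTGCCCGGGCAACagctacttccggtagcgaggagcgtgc
Dnaaf2: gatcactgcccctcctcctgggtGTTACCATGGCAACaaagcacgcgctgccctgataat
Dnaaf6: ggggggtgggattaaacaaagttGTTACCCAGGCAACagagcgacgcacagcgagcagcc

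The window of Drc1, which the female comparison below turns on, lies at chr6:31779207-31779506 on the minus strand. It holds 1 RFX half-site, in capitals, read on the opposite strand as GGCAAC, and no full X-box.
Drc1: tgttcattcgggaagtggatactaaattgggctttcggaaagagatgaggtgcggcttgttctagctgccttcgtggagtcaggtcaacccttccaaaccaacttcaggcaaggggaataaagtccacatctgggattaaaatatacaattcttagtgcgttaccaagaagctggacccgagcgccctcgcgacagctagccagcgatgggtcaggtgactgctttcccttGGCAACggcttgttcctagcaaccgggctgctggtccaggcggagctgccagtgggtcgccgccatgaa

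Most axoneme genes gave a clear signal in CP. All levels below are log2 of the processed array signal minus the median of the same array, so that 0 is the middle of an array. Well above background on all 14 arrays were 49 of the 54 genes (90.7%), against 75.6% of all named genes. The exceptions were Cfap97d1 (13 arrays), Cfap68 (6), Tekt5 (3), Cfap20dc (1) and Spag6, a central apparatus gene that was not well above background on any array. Rsph10b was saturated on 2 arrays. The median over the 54 genes was 2.72 ± 0.06 in sham females (SD, n = 3), 2.77 ± 0.10 in OVX females (n = 3), 2.62 ± 0.20 in sham males (n = 4) and 2.53 ± 0.28 in OOX males (n = 4).

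The libraries held the epithelial markers of the labelled tissue and also markers of other cells. All 10 genes of a CP epithelium list, such as Ttr, Otx2 and Kl, were well above background on all 14 arrays, but 4 of them (Ttr, Folr1, Kcnj13 and Enpp2) were saturated on every array, Otx2 on 13 and Aqp1 on 4. Only Kl, Clic6, Slc4a5 and Prlr were saturated on none. All 6 genes of an ependyma list, such as Foxj1 and Tmem212, were well above background on all 14 arrays. All 7 astrocyte markers and 8 of 10 neuron markers were well above background on every array too. Of 11 spermatid markers, 2 were well above background on every array and 2 (Odf1 and Akap4) on none. Sham female 3 stood apart from the other sham females: the median level of the spermatid markers was -1.98 there and -5.73 and -6.13 in sham females 1 and 2, and it lay between -2.28 and -1.36 in the OVX pools. Whether the label of this pool is right was not tested, and it is 1 of the 3 sham arrays behind every female difference below. Without it 0 axoneme genes were called in females, and the median female difference was 0.07. Between 79.7% and 87.2% of the spots of an array were well above background.

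In females, removal of the ovaries was accompanied by a higher signal of 1 axoneme gene, Drc1, which encodes a scaffold subunit of the N-DRC. Drc1 stood at 5.13, 5.12 and 4.99 in the sham pools and at 6.13, 5.89 and 6.15 in the OVX pools. The groups did not overlap, and the male pools, between 5.06 and 5.86, all lay below the OVX pools. All male pools but OOX male 1 also lay above every sham female pool. The group means were 5.08 in sham females, 6.06 in OVX females, 5.60 in sham males and 5.49 in OOX males. The log2 difference was 0.98 (SE 0.13), a 1.97-fold higher level, with adjusted p = 0.0401 in limma with Benjamini-Hochberg adjustment over all features. Across all named genes 1.81% were called higher and 4.4% lower in OVX females, so that 1 of 54 called higher (1.85%) was close to the background, and 0 of 54 were called lower. Dim genes weigh on that background: over the 12505 named genes detected on every array of at least 1 female group, 1.54% were called higher and 0.984% lower. At an unadjusted p under 0.05, 8 of 54 were higher (14.8%, against 9.25% of all genes) and 0 were lower (against 10.7%). Among genes so detected, 8 of 50 were higher (16%, against 8.88%) and 0 were lower (against 5.78%).

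The Drc1 call rested on the full set of arrays. It was lost when any 1 pool other than sham female 2 was left out, with adjusted p between 0.0791 and 0.117, although the log2 difference stayed between 0.93 and 1.06 over all 6 such fits. With slide as a block, the only slide with both female groups (sham female 3 and OVX female 1) gave a log2 difference of 1.14 with adjusted p = 0.534, and with scan day as a block the adjusted p was 0.203.

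**Figure D1:**
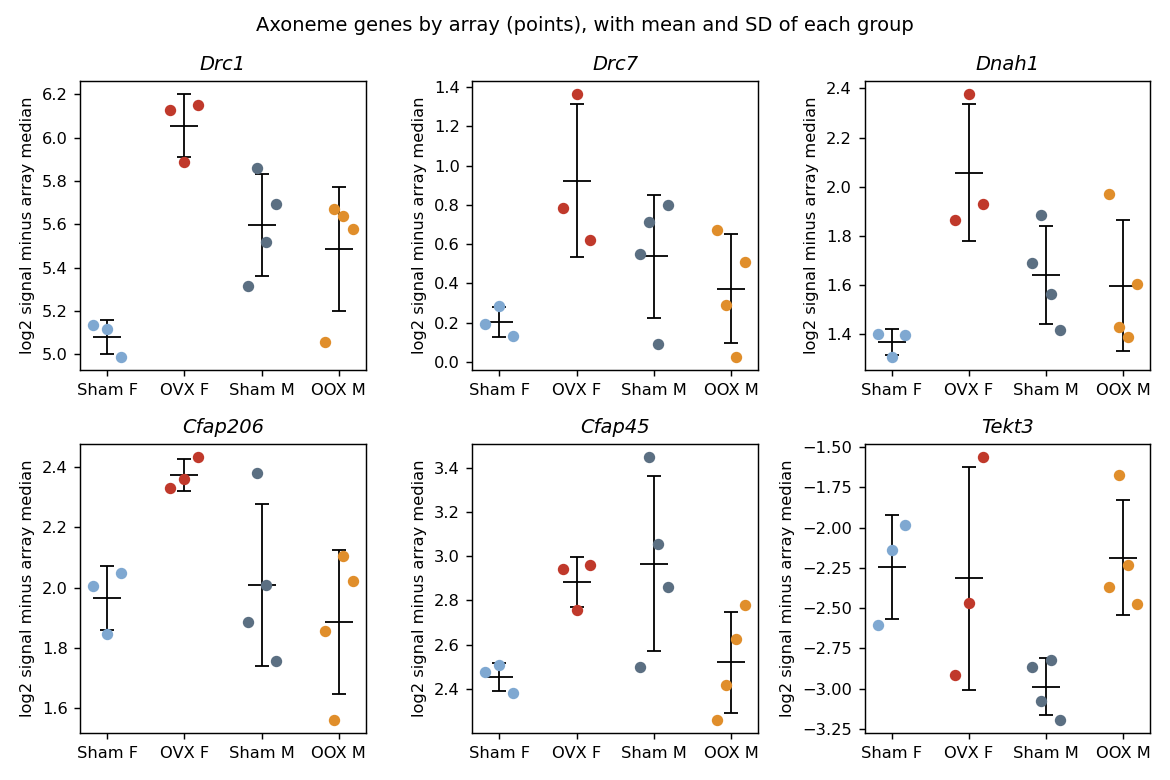
Log2 signal minus array median (vertical axis) of 6 axoneme genes in the 4 groups (horizontal axis); each point is 1 array, and the black marks are the group mean and SD (n = 3 for each female group, n = 4 for each male group). The Drc1 points of OVX females lie between 5.89 and 6.15, above the sham female points, while those of the male groups overlap.

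Drc7, a second N-DRC gene, stood at 0.20, 0.29 and 0.13 in sham females and at 0.79, 1.36 and 0.62 in OVX females. All OVX pools were higher, with OVX female 2 the highest. The log2 difference of 0.72 (SE 0.21) did not pass the test (adjusted p = 0.101 in limma). Drc3, from the same complex, ranged from 4.71 to 4.80 in sham females and from 4.85 to 5.04 in OVX females, again without overlap, and Drc12 overlapped.

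Among dynein arm genes, Dnah1, the heavy chain of an inner arm dynein, stood at 1.40, 1.31 and 1.40 in sham females and at 1.86, 2.38 and 1.93 in OVX females. Every OVX pool was above every sham pool. The log2 difference of 0.69 (SE 0.17) gave adjusted p = 0.0626 in limma, and with arrays scaled to their 75th percentile it was 0.77 with adjusted p = 0.0485. Dnai1, an outer arm intermediate chain, had a difference of 0.63 (SE 0.37, adjusted p = 0.371), and its sham pools were uneven, at 0.38, 1.57 and 1.70. Dnai2, the other outer arm gene measured, differed by 0.03 (SE 0.32), and Dnai3, an inner arm intermediate chain, by 0.16 (SE 0.14). Cfap43, needed for the tether of an inner arm dynein, was at 4.01, 4.14 and 3.44 in sham and at 4.26, 2.65 and 2.72 in OVX females, with a difference of -0.65 (SE 0.46, adjusted p = 0.463). Its sign turned with slide as a block (0.82) and with scan day as a block (0.40). None of the 6 dynein arm genes was called in either sex.

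Of the 9 dynein assembly factors, 6 had a positive and 3 a negative difference in females, where 41.4% of all named genes had a positive one, and none was called. Dnaaf1 stood at -0.07, 0.37 and 0.56 in sham females and at 0.59, 1.20 and 0.94 in OVX females, with a log2 difference of 0.63 (SE 0.23, adjusted p = 0.177 in limma). Dnaaf2 and Dnaaf6, both with a full X-box in the windows shown above, had differences of -0.43 (SE 0.27) and -0.25 (SE 0.18). Their groups overlapped, and the Dnaaf2 value turned to 0.21 with slide as a block.

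Radial spoke genes were likewise not called. Cfap206, a protein of the spoke base, stood at 2.00, 1.84 and 2.05 in sham females and at 2.33, 2.36 and 2.43 in OVX females. The groups did not overlap, and the difference was 0.41 (SE 0.12, adjusted p = 0.100 in limma). The spoke head genes Rsph1 and Rsph9 differed by -0.19 (SE 0.16) and -0.11 (SE 0.13), and Rsph14 by 0.06 (SE 0.13). Spag16, a central apparatus gene, stood at -2.72, -2.11 and -2.18 in sham females and at -1.59, -1.89 and -1.15 in OVX females. Its difference of 0.80 (SE 0.25) did not pass the test (adjusted p = 0.123). Spag6 gets no fold, as both groups were below background.

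The 17 proteins inside the doublets split 7 positive to 10 negative in females. Cfap45 stood at 2.47, 2.51 and 2.38 in sham females and at 2.94, 2.75 and 2.96 in OVX females, without overlap (difference 0.43, SE 0.12, adjusted p = 0.0922 in limma). Tekt2, a tektin of cilia and flagella, ran the other way, at 5.11, 5.08 and 5.15 in sham and at 5.03, 4.74 and 4.72 in OVX females (difference -0.29, SE 0.13, adjusted p = 0.277). Tekt1 differed by -0.12 (SE 0.12), Tekt3 by -0.07 (SE 0.37), Tekt4 by -0.04 (SE 0.17), Cfap52 by 0.15 (SE 0.14) and Cfap107 by 0.26 (SE 0.55). Cfap298, which acts in dynein arm placement, was at 6.06, 5.91 and 5.83 in sham and at 5.81, 5.83 and 5.60 in OVX females, a difference of -0.19 (SE 0.13). Its groups were separate by a narrow margin.

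Over the whole set, the females gave a median log2 difference of 0.04 (n = 54), beside -0.07 over all named genes. For the 49 genes detected on all 14 arrays it was 0.03, beside -0.07 over all genes so detected. Of the 54 differences 30 were positive (55.6%, against 41.4% of all genes) and 24 negative (against 58.6%). The groups did not overlap, with OVX higher, for 11 of 54 genes (20.4%, against 11.5% of all genes). Among genes detected on every array of at least 1 female group it was 11 of 50 (22%, against 11.7%). With OVX lower they did not overlap for 3 (5.56%, against 16.2% and 12.6%), namely Cfap298, Tekt2 and Tekt5. With the unadjusted p of limma and the 1.5-fold limit of the study's methods, 5 genes were higher (9.26%, against 5.97% of all genes), Dnaaf1, Dnah1, Drc1, Drc7 and Spag16, and 0 were lower (against 7.94%).

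**Figure D2:**
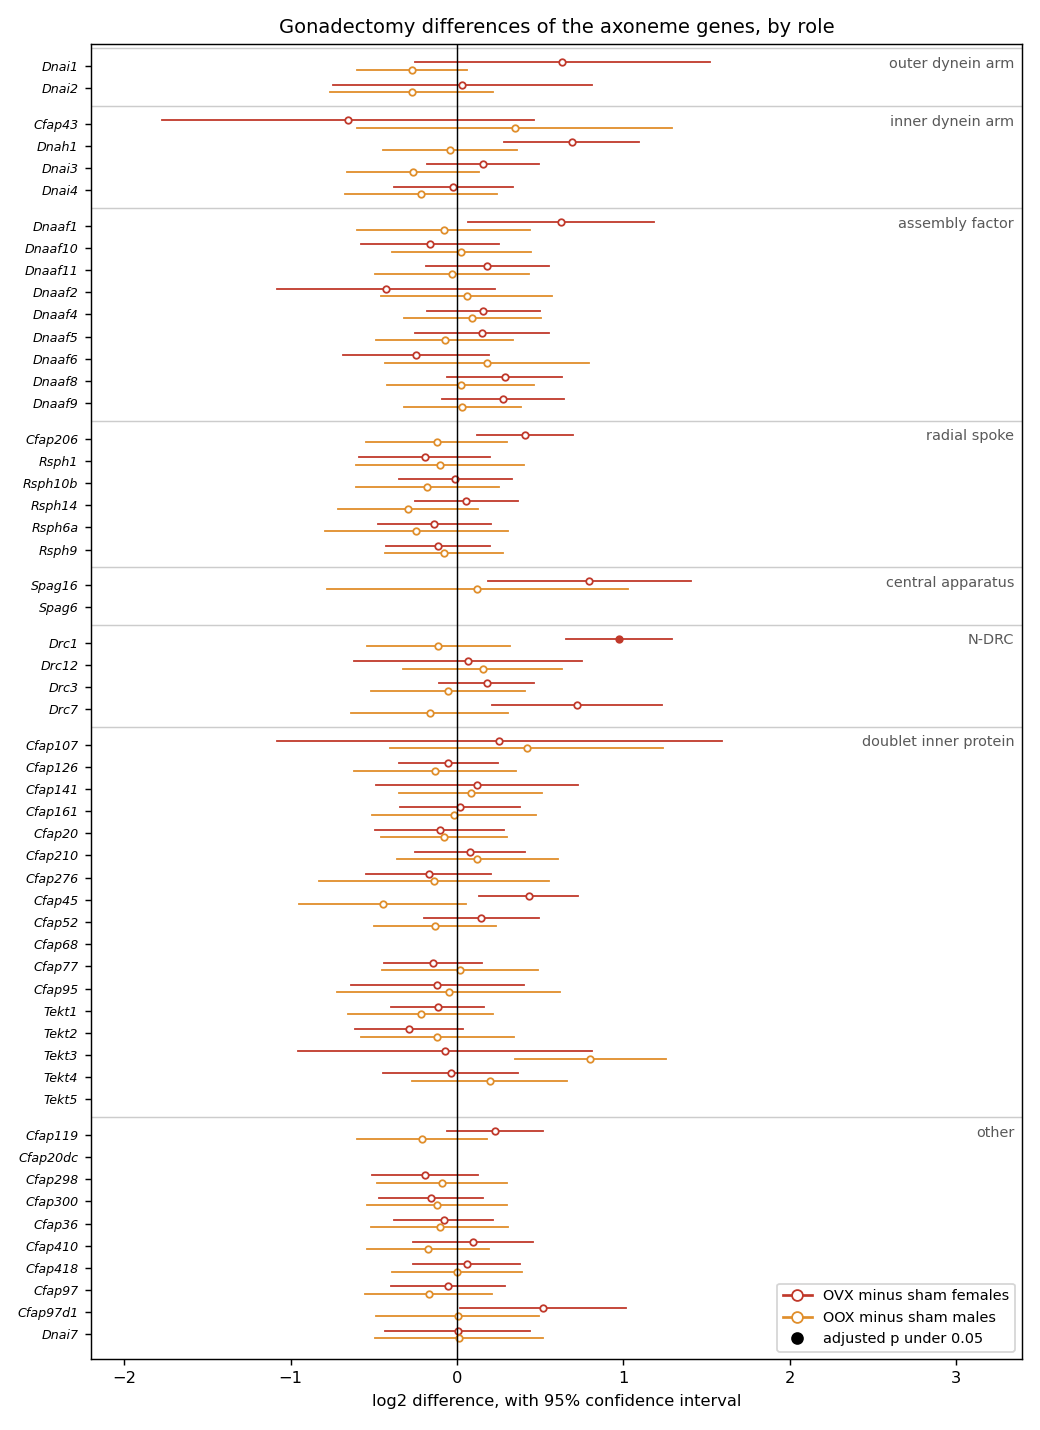
Log2 difference (horizontal axis, points) with its 95% confidence interval (bars) for each axoneme gene (vertical axis), grouped by role, for OVX minus sham females and OOX minus sham males; a filled point has an adjusted p under 0.05, and no point is drawn where a group was below background on all of its arrays. Only Drc1 in females is filled, at 0.98.

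In males, removal of the testes was not accompanied by a called change in any axoneme gene: 0 of 54 were called higher, against 0.0858% of all genes, and 0 lower, against 0% of all genes (limma). At an unadjusted p under 0.05, 1 gene was higher (1.85%, against 4.32% of all genes) and 0 were lower (against 2.56%). With the 1.5-fold limit added, the same gene was higher (against 2.73% of all genes) and 0 were lower (against 0.706%). That gene was Tekt3, a tektin known from sperm flagella. It stood at -2.86, -3.08, -2.82 and -3.19 in sham males and at -2.37, -1.67, -2.23 and -2.48 in OOX males. The groups did not overlap, and OOX male 2 was the highest. The difference of 0.80 (SE 0.20) had adjusted p = 0.425 in limma. On the slide that carried both male groups (OOX male 4 with sham males 1 and 2) it was 0.49.

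Cfap68, a protein of the doublet interior, was the other gene whose male groups did not overlap (2 of 54 with OOX higher, 3.7%, against 2.44% of all genes, and 0 with OOX lower, against 1.57%). It stood at -4.91, -4.52, -4.90 and -4.23 in sham males, not well above background on any of these arrays, and at -0.82, -4.22, -3.27 and -4.04 in OOX males. Its level was at least 2.49-fold higher in OOX males, where the bound replaces each sham value below the lowest measurable signal of its array by that signal (adjusted p = 0.648). On this probe, the brightest for the gene, OOX male 1 stood far above the other 3. A further Cfap68 probe did not repeat this: OOX male 2 was highest there, at -1.80. On that probe OOX males 1 and 3, at -4.25 and -4.76, lay within the sham male range of -5.39 to -3.86. The fold bound and the separation of the groups were thus read from the brightest probe only. Tekt5, a testis-rich tektin, was well above background in 3 of 4 sham male pools (-3.56, -3.43, -4.12 and -6.04) and in no OOX pool (-5.12, -4.87, -4.55 and -5.44), at least 1.13-fold higher in sham males (adjusted p = 0.875). It was not well above background in any female pool, and gets no fold there. Cfap20dc was well above background on 1 array only, that of OVX female 3, at -2.51.

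Counting genes that were measurable above background throughout 1 or both male groups, the 5 smallest p-values on the lower side belonged to Cfap45 (difference -0.45, SE 0.22), Dnai1 (-0.27, SE 0.15), Rsph14 (-0.29, SE 0.18), Dnai3 (-0.26, SE 0.17) and Dnai2 (-0.27, SE 0.22), with adjusted p between 0.689 and 0.886 in limma. On the higher side of the same genes, after Tekt3 and Cfap68, stood Cfap107 (0.42, SE 0.36), Tekt4 (0.20, SE 0.21) and Cfap43 (0.35, SE 0.42). Spag16 differed by 0.12 (SE 0.40), Tekt1 by -0.22 (SE 0.19), Tekt2 by -0.12 (SE 0.20), Cfap52 by -0.13 (SE 0.16), Dnaaf1 by -0.08 (SE 0.23), Rsph1 by -0.10 (SE 0.22) and Rsph9 by -0.08 (SE 0.16). The 6 radial spoke genes and both outer arm genes had negative differences, but for several of the spoke genes the sign changed with the fit. Rsph10b differed by -0.18, but by 0.16 on the slide that carried both male groups. Rsph1 turned to 0.34 with slide as a block and to 0.080 without OOX male 2. Rsph9 turned to 0.014 with normexp background correction, 0.0058 with slide as a block and 0.018 without OOX male 2, and Cfap206 turned to 0.0029 without sham male 2. Over the set, 36 of 54 differences were negative (66.7%, against 47% of all genes) and 18 positive (33.3%, against 53%), with a median of -0.08 beside 0.02 over all genes. This median was 0.05 without OOX male 2, 0.00 without sham male 2 and 0.09 with slide as a block.

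Of the genes that stood higher in OVX females, Drc1 differed by -0.11 in males (SE 0.19, 95% confidence interval -0.54 to 0.32), Dnah1 by -0.04 (SE 0.18), Drc7 by -0.16 (SE 0.21) and Cfap206 by -0.12 (SE 0.19). The difference between the sexes was tested directly, as the male minus the female difference. No axoneme gene passed (0 of 54 higher, against 0.185% of all genes, and 0 lower, against 0.066%). At an unadjusted p under 0.05, 6 were lower (11.1%, against 3.91% of all genes) and 0 higher (against 6.38%). Drc1 had a male minus female difference of -1.09 (SE 0.24, adjusted p = 0.114 in limma), Cfap45 of -0.88 (SE 0.28, adjusted p = 0.301) and Dnah1 of -0.73 (SE 0.25, adjusted p = 0.339). Drc7 (-0.88, SE 0.31), Dnai1 (-0.90, SE 0.38) and Cfap206 (-0.53, SE 0.23) were the others.

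The axoneme genes moved together from pool to pool within the male groups. In sham males, 5 of 54 genes lay above their group mean in pool 1 and 50 of 54 in pool 2, with 22 and 25 in the other two. In OOX males, 7 of 54 lay above the mean in pool 2, against 29 in pool 1, 44 in pool 3 and 45 in pool 4. The median deviation was -0.23 in sham male 1, 0.25 in sham male 2 and -0.37 in OOX male 2, and in the 6 female pools it stayed between -0.07 and 0.05. All named genes leaned the same way in these pools: 23.7% of them lay above the mean in sham male 1, 67.6% in sham male 2 and 25.9% in OOX male 2. Other ciliary genes did so too. Of 17 genes of intraflagellar transport 0 lay above the mean in sham male 1, 17 in sham male 2 and 0 in OOX male 2 (median deviations -0.20, 0.21 and -0.37), and of 10 genes of the BBSome and its partners 0, 10 and 0.

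**Figure D3:**
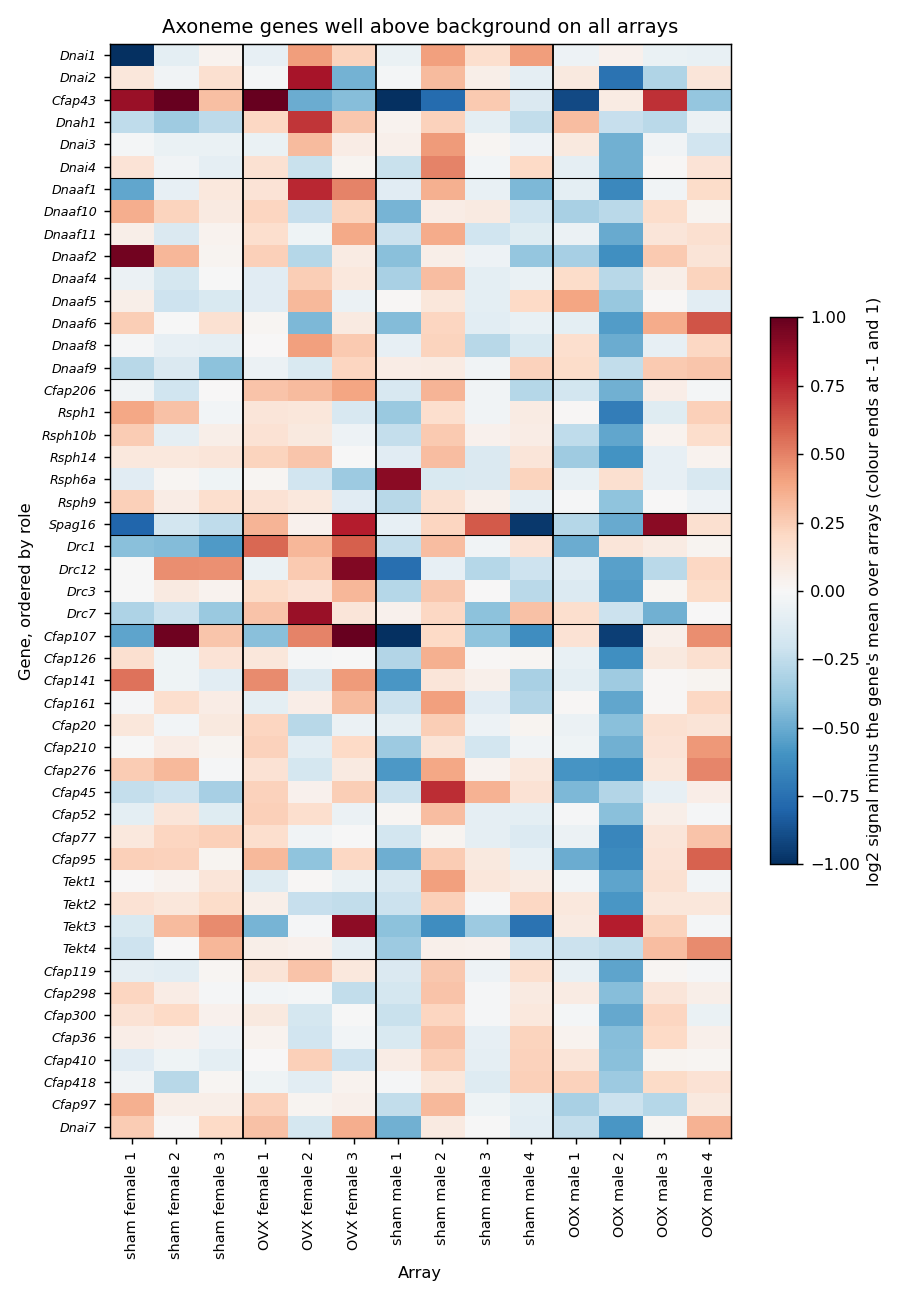
Log2 signal minus the gene's own mean over the 14 arrays (colour, ending at -1 and 1) for the 49 axoneme genes well above background on all arrays (rows, ordered by role) and the 14 arrays (columns, by group). The column of OOX male 2 is blue for nearly all genes and Tekt3 is red there, while the columns of sham males 1 and 2 lean to opposite sides.

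Markers of brain tissue ran the other way in the same pools. Sham male 1 and OOX male 2, low in axoneme genes, had astrocyte markers with median deviations of 1.44 and 1.69 and neuron markers with 2.63 and 1.02. In sham male 2, high in axoneme genes, these medians were -0.60 and -1.44. In OOX male 4 they were -0.72 and -0.97, with axoneme genes at 0.18. Not every pool followed this. In sham male 4 the astrocyte and neuron medians were -0.57 and -1.09, with axoneme genes at -0.01. In sham female 1 they were -0.81 and -1.48, with axoneme genes at 0.03. The summed log2 level of the 7 astrocyte markers ran from 5.04 to 7.01 in sham males and from 5.57 to 7.24 in OOX males, and that of the 10 neuron markers from 1.83 to 5.98 and from 2.57 to 5.06. In females the sums ran from 5.65 to 6.67 (sham) and from 5.56 to 6.29 (OVX) for astrocyte markers, and from 2.92 to 5.46 and from 2.41 to 4.14 for neuron markers. The 4 CP epithelium markers saturated on no array had median deviations of -0.16, 0.13 and -0.32 in sham males 1 and 2 and OOX male 2, the same direction as the axoneme genes. None of the astrocyte or neuron markers was called in either sex. Over all named genes 1.81% were called higher and 4.4% lower in females, and 0.0858% and 0% in males. The median differences of the astrocyte and neuron lists were -0.56 and -0.90 in females and 0.41 and 0.51 in males. The part of brain tissue RNA in the axoneme values was not tested. Without sham male 1 and OOX male 2 the median male difference was -0.02.

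**Figure D4:**
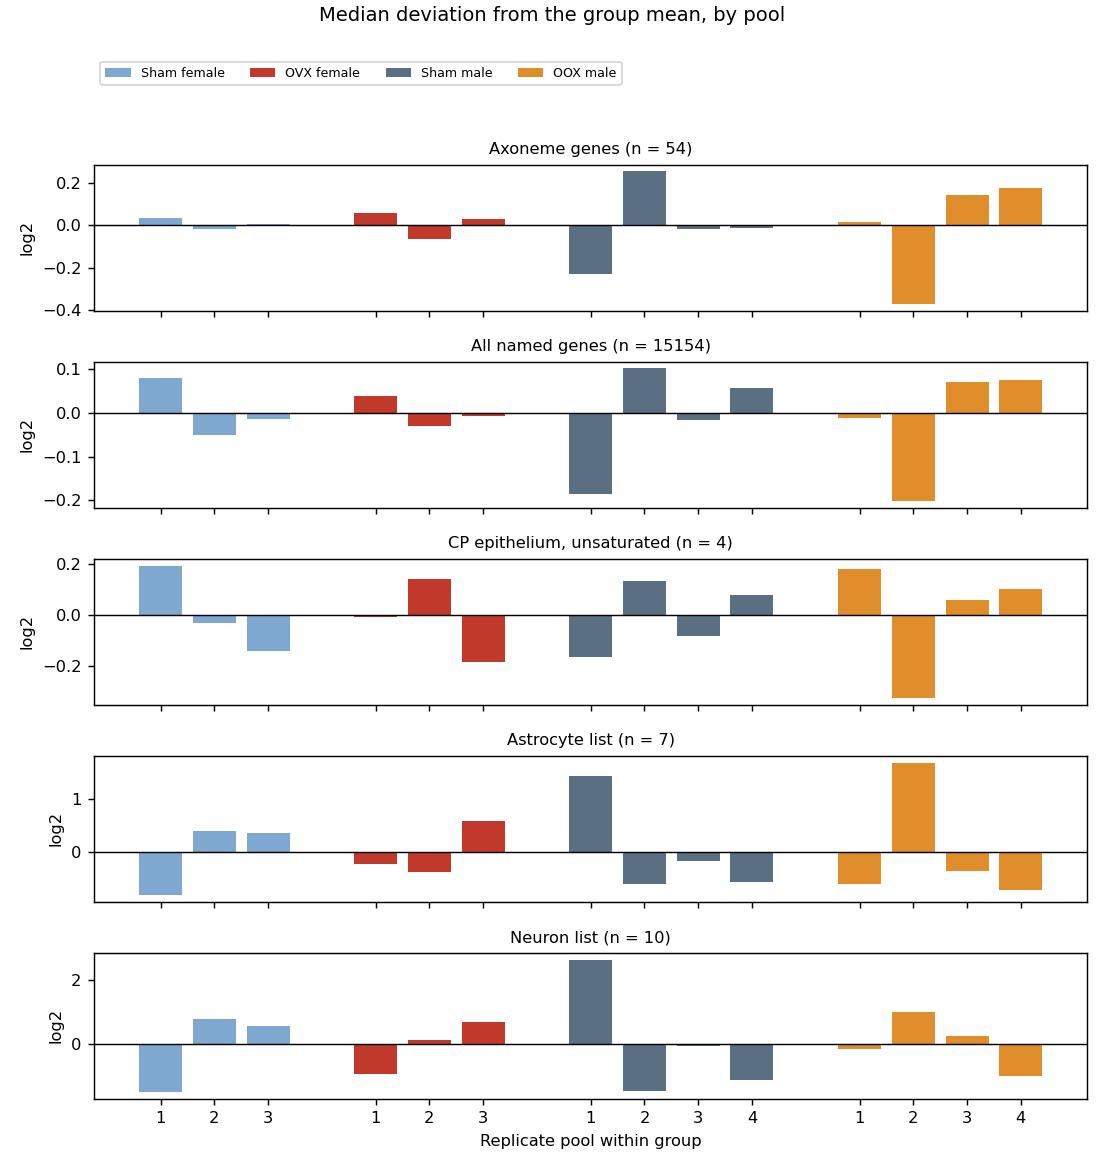
Median deviation from the group mean (vertical axes, log2, each panel on its own scale) of the axoneme genes, all named genes, the 4 unsaturated CP epithelium markers and 2 lists of brain markers, for each replicate pool (horizontal axis). In sham male 1 and OOX male 2 the axoneme bars fall to -0.23 and -0.37 while the astrocyte bars rise to 1.44 and 1.69.

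Spermatid transcripts separated the male groups, and in females all pools but 1. The median level of the 11 spermatid markers lay between -6.03 and -4.26 in sham males and between -2.68 and -1.26 in OOX males. In females sham pool 3 lay among the OVX pools, as given above. The summed log2 level ran from -0.02 to 0.30 in sham males, from 1.39 to 2.18 in OOX males, from -0.37 to 1.72 in sham females and from 1.67 to 2.13 in OVX females. In males 5 of 11 markers were called higher, against 0.0858% of all genes: Tnp1, Tnp2, Smcp, Hmgb4 and Crisp2, genes of sperm chromatin and sperm structure. The study's own list of genes most raised in males holds all 5. The marker list was chosen with earlier results known, so this count is a description and no independent support. Smcp had a log2 difference of 3.75 (SE 0.24, adjusted p = 0.00237 in limma), with 2 of 4 sham male arrays well above background. Tnp2 was at least 7.77-fold higher in OOX males (adjusted p = 0.00158), with a measured log2 difference of 4.75. All 5 calls depended on the processing. With normexp background correction, with all 4 groups in 1 fit and with the methods' t-test, 0 of the 15154 named genes were called higher in males. The same held without sham male 1 and OOX male 2. With normexp background correction the log2 differences were 1.43 for Smcp and 1.01 for Tnp2 (adjusted p = 0.117 for both). The differences stayed at 3.75 and 4.75 with all 4 groups in 1 fit (adjusted p = 0.146 and 0.0677) and with the methods' t-test (adjusted p = 0.0693 for both). Without sham male 1 and OOX male 2 they were 3.55 and 4.50 (adjusted p = 0.0734 for both), and with slide as a block Smcp was at 4.04 (adjusted p = 0.0517). In females none of the 11 was called. Tnp2 stood at -5.78, -6.13 and -1.75 in sham and at -1.72, -1.60 and -1.17 in OVX females. Without sham female 3 its adjusted p was 0.0245 in limma. That pool was set apart by these same markers, so the fit without it cannot test them.

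The part of this RNA in the axoneme values was not tested. Among the OOX pools the spermatid median was lowest in OOX male 1, at -2.68, where the brightest Cfap68 probe was highest. Tekt3 differed by -0.07 in females. Tekt3 was highest in OOX male 2 (-1.67), OVX female 3 (-1.56) and sham female 3 (-1.98). These pools also had the highest spermatid median of their groups, at -1.26, -1.36 and -1.98. Other pools did not follow this. OOX male 4 had a spermatid median of -1.28, but the lowest Tekt3 of the OOX pools, at -2.48. Sham female 2 had the lowest spermatid median of the sham females, at -6.13, with Tekt3 at -2.14. In sham males Tekt3 was highest in pool 3, at -2.82, but the spermatid median was highest in pool 2, at -4.26. Drc1 was low, at 4.99, in sham female 3, the sham pool with the spermatid transcripts, and its female log2 difference without that pool was 0.93.

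**Figure D5:**
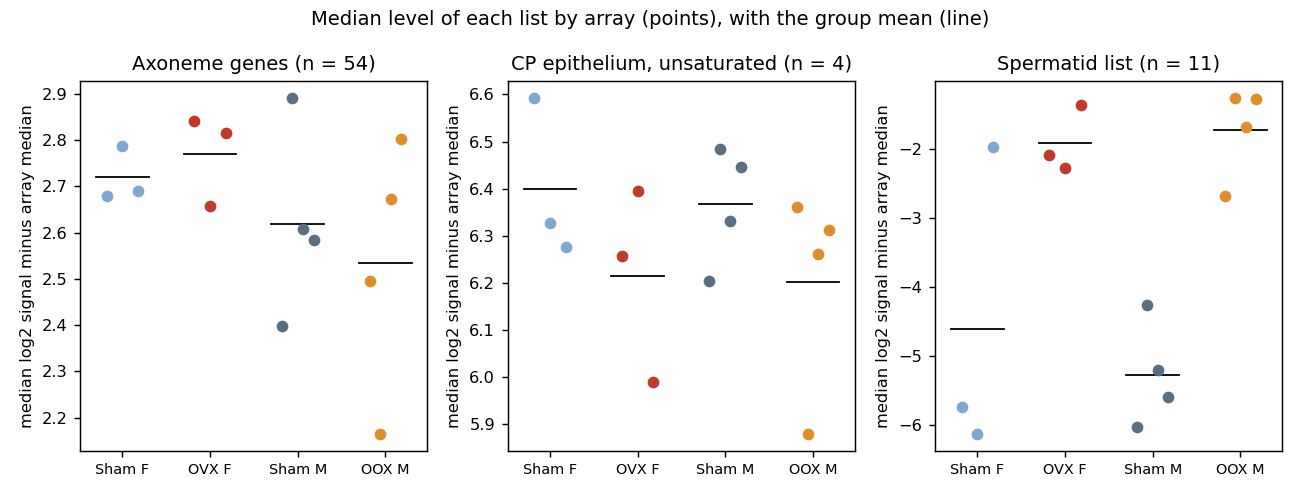
Median log2 signal minus array median (vertical axes, each on its own scale) of the 54 axoneme genes, the 4 CP epithelium markers saturated on no array and the 11 spermatid markers, by group (horizontal axis); points are arrays and lines are group means. The spermatid points of OVX and OOX arrays lie between -2.68 and -1.26, as does 1 sham female point at -1.98, while the axoneme points of the groups overlap.

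Other ciliary genes came from lists that the naming rule does not take. Among 22 further axoneme genes, none was called in either sex. Over all named genes 1.81% were called higher and 4.4% lower in females, and 0.0858% and 0% in males, so that lists of this size would hold few or no calls at the background share. The closest in females was Odad1, a part of the outer dynein arm docking complex, with a log2 difference of 0.83 (SE 0.20, adjusted p = 0.0590 in limma), which passed with 75th percentile scaling (adjusted p = 0.0441) and with all groups in 1 fit (0.0488). Spef2, a central apparatus protein, followed with 0.47 (SE 0.13, adjusted p = 0.0901), and passed with 75th percentile scaling (adjusted p = 0.0418). The median over the 22 was -0.01 in females and -0.03 in males.

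The 4 measured regulators of multiciliation were not called. Foxj1, the transcription factor that switches on motile cilia genes, differed by -0.19 in females (SE 0.13) and by 0.10 in males (SE 0.21). Rfx2, which binds the X-box, differed by 0.54 in females (SE 0.17, adjusted p = 0.131 in limma) and by 0.35 in males (SE 0.23). Of 17 genes of intraflagellar transport, which carries cargo along the cilium, and 10 genes of the BBSome and its partners, which sort ciliary membrane proteins, none was called in either sex. Their female medians were -0.08 and -0.01 and their male medians -0.07 and -0.02. Of the 6 ependyma genes, which include Foxj1, none was called in either sex. Their median difference was -0.06 in females and 0.22 in males, and the part of ependymal RNA in the axoneme values was not tested. The prolactin receptor Prlr had the smallest p of the epithelium list in females, with a difference of -0.51 (SE 0.12, adjusted p = 0.0531). Over the 4 genes of that list saturated on no array the median difference was -0.20 in females and -0.16 in males.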

How the data were processed

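The deposited files are 1-colour Agilent scanner tables. The authors made their intensities with Feature Extraction 10.5.1.1 (header build rn4), with background subtracted, and per the study's methods centred the arrays on the median in BRB-ArrayTools. The deposited log2 value table of the same arrays was used as an alternative. Its columns equal log2 of the scanner signal shifted by a constant per array (-0.44 to 0.30), and since their medians differ (7.59 to 7.88) the set of probes they were centred on is unknown. Here log2 of the processed signal minus the array median was used, control spots and spots flagged as outliers left out and spots of a probe averaged. Accessions were named through RefSeq (GRCr8), giving 18004 named probes of 30367. A gene was read from its brightest probe, and probes without a name stayed in the tests (27517 features). limma 3.58.1 (R 4.3.3) fitted each sex separately, all 14 arrays for the difference between the sexes. A call is an adjusted p under 0.05. The number of arrays limits the precision. In simulated data of this design, calls recovered 5% of 2-fold and 78% of 5-fold changes in females, 44% and 79% in males, and 25% and 73% for the difference between the sexes. Each simulated gene had 1 variance pooled over the 4 groups, and 200 genes were changed. In the data, the median SD of the 49 detected axoneme genes was 0.11 in sham and 0.19 in OVX females. It was 0.23 in sham and 0.30 in OOX males, so that these shares do not rank the sexes.

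Groups came from the sample labels, which list 4 pools for each male group where the methods speak of 3. Named genes were those called, the 5 smallest p per sex and direction (only genes measurable above background throughout 1 or both of the groups compared), a list fixed by role, the 3 with the largest spread, genes never well above background, and up to 4 of each other list by smallest p in each sex. Genes named by a count of 5 or fewer were chosen after their values were seen. The genes, lists and tests were chosen with earlier results of these data known. Alternatives covered scaling to the 75th percentile, quantile normalization, normexp on the median signal (the mean signal is not in these files), dim and outlier spots, probe averages, scan day, slide and replicate number as blocks, the methods' t-test, and leaving out each array. The pair of male pools left out together was chosen after seeing the data.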

Additional observations from a re-analysis of the deposited data

Results flagged for a closer look

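In the 4 OOX male pools, 1 pool stood apart from the other 3 for 6 of the 27 named genes: the gap to the nearest pool, divided by the range of the group, was above Dixon's 95% critical value for 4 values. This ratio was 0.990 for Tekt2, 0.896 for Cfap298, 0.859 for Rsph9 and 0.843 for Cfap52, where OOX male 2 was the lowest pool. It was 0.845 for Dnai1, where OOX male 2 was the highest at 1.71, and 0.848 for Drc1, where OOX male 1 was the lowest at 5.06. No named gene and no median of the set passed this limit in sham males. Chance flags about 1 in 20 groups, 56 groups were looked at, and the genes of 1 pool are not independent of each other.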

How the results depend on the processing

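Beside 1 axoneme gene called higher in females, there were 5 with the unadjusted p and fold limit of the methods, 2 with 75th percentile scaling, 0 with the methods' t-test, 0 with a replicate block, 0 with slide as a block, 0 with scan day as a block, and 0 to 1 when 1 array was left out. In males the methods' limits gave 1 higher in place of 0. The counts called lower in either sex, and those for the difference between the sexes, were 0 in every fit. Those counts take the p from limma. The methods' t-test at their own p and fold limits gave 3 higher in females (Drc1, Drc7 and Dnah1), 1 in males (Tekt3) and 0 lower in either, and after Benjamini-Hochberg adjustment 0 in both sexes. The replicate numbers did not pair the pools: deviations of same-numbered pools correlated at -0.03 to 0.20 in females and at -0.39 to 0.21 in males. With the replicate block the adjusted p of Drc1 in females was 0.0734, and with the methods' t-test it was 0.0970. Scan day as a block could not be fitted in males, whose arrays were all scanned on the same day, and the at-least folds were not recomputed under the alternatives. The median female difference was 0.13 with 75th percentile scaling, and 0.01 to 0.07 when 1 array was left out. The median male difference ranged from -0.13 to 0.05 when 1 array was left out.

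Among the named genes signs turned, mostly for genes with a difference near 0 and none of them called. With slide as a block the female differences were -0.70 for Cfap107, 0.82 for Cfap43, 0.21 for Dnaaf2, -0.12 for Dnai1, -0.18 for Dnai2, 0.15 for Rsph1 and -0.27 for Deup1, and the male ones 0.0080 for Cfap298, 0.058 for Dnaaf1, 0.34 for Rsph1, 0.0058 for Rsph9, 0.099 for Tekt2 and -0.24 for Gjb6. Blocking on scan day gave females values of -0.66 for Cfap107, 0.40 for Cfap43, -0.097 for Dnai2, -0.016 for Dnai3, 0.016 for Tekt4 and -0.37 for Deup1. With 75th percentile scaling they were 0.011 for Tekt3 and 0.045 for Tekt4. With quantile normalization they were 0.044 for Rsph9, 0.083 for Tekt4, -0.11 for Deup1 and 0.051 for Akap4. With normexp they were -0.035 for Deup1 in females, and 0.014 for Rsph9 and -0.099 for Spag16 in males. In the authors' log2 table Tekt4 was 0.018 in females. Averaging probes gave -0.087 for Meig1 in females and -0.0090 for Spef2 in males. Without both low male pools, Dnaaf1 was 0.070 and Dnah1 was 0.032. The cause of these turns was not tested.

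When 1 array was left out, the female values ranged from -0.20 to 0.71 for Cfap107, -0.32 to 0.32 for Dnai2, -0.00035 to 0.14 for Rsph14, -0.45 to 0.23 for Tekt3, -0.16 to 0.11 for Tekt4 and -0.099 to 0.41 for Deup1. The male values ranged from -0.21 to 0.0029 for Cfap206, -0.16 to 0.040 for Cfap298, -0.21 to 0.085 for Dnaaf1, -0.074 to 0.22 for Dnaaf2, -0.00022 to 0.40 for Dnaaf6, -0.17 to 0.041 for Dnah1, -0.20 to 0.032 for Drc1, -0.23 to 0.080 for Rsph1, -0.16 to 0.018 for Rsph9, -0.18 to 0.34 for Spag16, -0.21 to 0.056 for Tekt2, -0.44 to 0.11 for Deup1 and -0.040 to 0.28 for Foxj1. With 3 or 4 pools a group, simulated data of this design recovered 5% of 2-fold changes in females and 44% in males. A smaller change of an axoneme gene would mostly go uncalled in such data. The simulated spread was pooled over all 4 groups, so that these shares do not show which sex was measured less well.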
